A study of Mus musculus with 12 samples.

Results

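Regulatory T cells (Treg) of wild-type (WT) mice were compared between cells profiled in vivo and cells kept in vitro without stimulation, which are 4 of the 12 libraries of polyadenylated RNA in the series. The series title places the study in the Polycomb field, with Kdm2b, a subunit of the non-canonical complex PRC1.1, as the gene deleted. All libraries are labelled as spleen and lymph nodes. Of the 6 groups of 2 libraries, the comparison uses WT Treg in vivo (2 libraries) and WT Treg in vitro, unstimulated (2 libraries). The 2 in vivo and 2 unstimulated libraries of Kdm2b conditional knockout (cKO) Treg were used as a repeat, and the 2 stimulated WT libraries only for values side by side. Strain, age, sex, the sort used to isolate Treg, the culture medium and its duration, and the Cre line behind the knockout were not stated in the labels. Nothing in the labels says that the 2 libraries of a group came from separate animals or cultures, so the spread between them may be technical.

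The unit throughout is FPKM, fragments scaled to transcript length and library size, which the authors deposited in 2 tables, 1 for the in vivo and 1 for the in vitro libraries. Of 16138 genes found in both tables, 10668 had a mean of at least 1 FPKM in either WT group and were compared. Because the 2 tables were normalized separately, each library's genes were ranked, and each rank was given the mean log2(FPKM + 1) of the 4 libraries at that rank. A difference below is the mean of the unstimulated libraries minus that of the in vivo libraries on this rank-matched log2 scale. A gene was called higher or lower in culture when its difference was at least 1 and both libraries of 1 group lay beyond both of the other. No test was run, since culture and table cannot be told apart, and 2 libraries against 2 could not give an exact two-sided permutation p under 0.333.

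Treg are CD4 T cells that hold back immune responses. Their identity rests on the transcription factor Foxp3 together with a high-affinity IL-2 receptor, through which they take survival signals from IL-2 that other cells supply. In the body they also receive contact with antigen-presenting cells, interferon, glucocorticoid hormone and the nutrients of tissue fluid, and part of them have an effector phenotype with inhibitory receptors and tissue-homing chemokine receptors.

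The 4 libraries were not alike in quality or in sex-linked transcripts. FPKM summed to 461781 and 475227 in vivo and to 430976 and 377231 in unstimulated culture. Of the shared genes, 1235 and 1122 were at 0 in the in vivo libraries, against 2687 in unstimulated replicate 1 and 4830 in unstimulated replicate 2, which stands apart. Ddx3y, carried on chromosome Y, was at 0 to 0.04 FPKM in all 4 in vivo libraries of the series and at 28.4 to 56.75 in all 8 in vitro libraries. Kdm6a, carried on chromosome X and escaping X inactivation, was at 28.87 to 33.24 in vivo and 12.45 to 24.21 in vitro. The sex of the mice, the table and culture therefore cannot be told apart in any value below. The read depth is unknown, so no counting interval was computed.

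In vivo, the resting WT profile was led by the translation machinery and by transcripts common to T cells. Eef1a1, a translation elongation factor, was first in all 4 libraries, at 7492 and 7294 FPKM in vivo and 7460 and 5631 in culture. Tpt1, the translationally controlled tumour protein, was at percentile 99.99 in all 4 libraries. B2m, the light chain of MHC class I, stood at 2252 and 2367 FPKM in vivo and at 2502 and 2574 in culture. H2-K1, a class I heavy chain, was at 2374 and 2492 in vivo and at 1197 and 1009 in culture, a difference of -0.81 that was not called. Stimulated WT replicates 1 and 2 had H2-K1 at 2544 and 861. The actin-binding peptide Tmsb10 was among the 15 highest genes in vivo, at 2550 and 2591 FPKM, and was lower in culture at 1105 and 837 (difference -1.01, -0.96 and not called without unstimulated replicate 2). Fth1, the ferritin heavy chain that stores iron, entered the 15 highest in culture at 2218 and 1523 FPKM, from 1206 and 1167 in vivo. Its difference of 1.03 was at the threshold, and was 0.88 and not called without unstimulated replicate 1.

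Most Treg markers were high in both states. Ctla4, the inhibitory receptor that competes for CD28 ligands, was at 1097 and 1189 FPKM in vivo and at 422 and 507 in culture, which is percentile 98.8 or above of all genes compared in each library. Its difference of -0.75 was not called. Il2ra, the alpha chain of the IL-2 receptor, was at 105 and 98.2 FPKM in vivo and 81.9 and 101 in culture, so that the groups overlapped (difference 0.06). Lrrc32, which presents latent TGF-beta on the Treg surface, was at 352 and 376 in vivo and 176 and 160 in culture (difference -0.76, not called). Tnfrsf4 (OX40) was at 499 and 511 in vivo and 426 and 378 in culture, and Ikzf2 (Helios) at 47.4 and 45.6 against 38.9 and 68.3, both without a call. Gpr83, a Treg-enriched receptor, was called lower, at 11.9 and 14 in vivo and 4.96 and 2.49 in culture (difference -1.59). Of 29 genes in a Treg signature list, 3 were called higher (5.65% of all genes) and 4 lower (6.07% of all genes). The lower members included Ecm1 (difference -1.41) and Lag3 (difference -1.62), and the median of 0.06 changed sign with median-of-ratios scaling (-0.13). All 29 were detected in all 4 libraries. So were all 16 B cell and all 5 plasma cell markers, so detection alone does not check the labelled cell type.

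Foxp3 itself was at 107 and 106 FPKM in vivo and at 194 and 189 in unstimulated culture, a difference of 1.16, with percentiles of 94.2 and 94.0 moving to 97.6 and 97.7. The 2 libraries of each group lay close together and the groups did not overlap. The call did not hold with median-of-ratios scaling, where the difference was 0.87. In the libraries labelled cKO the values ran the other way, 114 and 117 in vivo against 71.5 and 82.6 in culture (difference -0.34). Stimulated WT cultures were at 529 and 696. Another gene's exons cover 31.5% of the exon bases of Foxp3, and the sources used here do not say whether strand was used in counting, so its level is uncertain.

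Across all genes the order of expression was largely shared. Spearman's rho across the 10668 genes, which are not independent replicates, was 0.992 between the in vivo libraries, 0.953 between the unstimulated libraries and 0.900 to 0.913 between the groups. The difference was under 0.5 in size for 59.5% of genes, and the median over all genes was 0.03. Of 10556 genes that could be called, 596 (5.65%) were higher and 641 (6.07%) lower in culture. The split moved with the scaling, to 398 higher and 888 lower on the deposited values, 424 and 847 after median-of-ratios scaling, and 790 and 587 after scaling to a common sum. Another 112 genes were listed at 0 in both libraries of 1 group, 111 of them in culture, and were never called. Zfp488, at 78.6 and 76.5 FPKM in vivo, and the complement gene C1qc, at 14.7 and 14.8, were listed at 0 in both unstimulated libraries. In unstimulated culture labelled cKO, Zfp488 was again at 0 in both libraries, while C1qc was at 3.51 and 0.23.

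**Figure D1:**
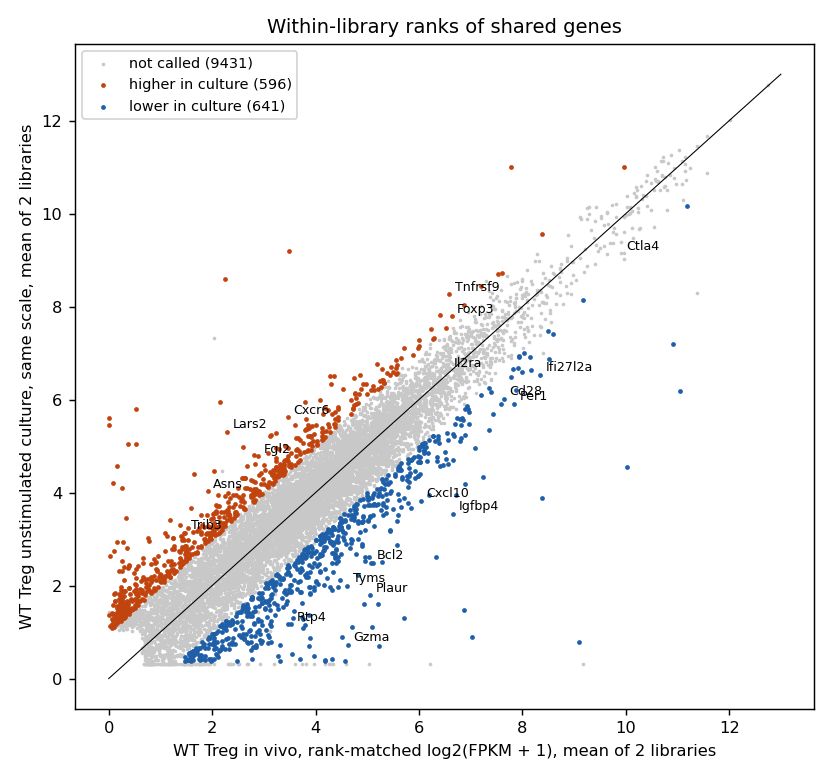
Each point is 1 of the 10668 genes compared, with its mean rank-matched log2(FPKM + 1) over 2 WT libraries in vivo (x axis) and over 2 WT libraries in unstimulated culture (y axis). The 596 genes called higher (orange) and 641 called lower (blue) flank the line of equal rank, and the Treg genes Il2ra and Ctla4 lie among the genes not called (grey).

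Some genes of the integrated stress response were higher in culture. Cells run this programme through the transcription factor ATF4 when amino acids are short or other stresses slow translation, and its targets make or import amino acids. Of 19 members compared, 6 were called higher (background 5.65%) and 0 lower (background 6.07%), 16 lay above 0, and the median was 0.50 against 0.03 over all genes, or 0.91 with copies and overlaps left out. Asns, which makes asparagine, was at 2.62 and 3.28 FPKM in vivo and at 18.1 and 12.9 in unstimulated culture (difference 2.11). Nupr1, a small stress-induced chromatin protein, was at 0.63 and 0.21 in vivo and 4.11 and 5.39 in culture (difference 2.26). Trib3, a pseudokinase that feeds back on ATF4, was at 2.08 and 1.87 in vivo and 8.27 and 7.11 in culture (difference 1.65). These 3 genes were low in vivo and several-fold higher in each cultured library, with no overlap. Pck2, Chac1 and Psph were the other called members, with differences of 1.43, 1.39 and 1.29. Stimulated WT cultures held Asns at 28.3 and 22.1 FPKM and Trib3 at 18.0 and 17.1.

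The transcripts of the upstream factors did not show the same shift. Atf4 was at 194 and 190 FPKM in vivo and at 171 and 190 in culture (difference 0.24), and Ddit3, which encodes CHOP, was at 41.8 and 40.4 against 25.3 and 27.0 (difference -0.57). Neither was called. Outside the list, Cars, the cytosolic cysteinyl-tRNA synthetase, was at 8.56 and 8.23 in vivo and 34.1 and 39.2 in culture (difference 2.05). Slc1a4, a transporter of neutral amino acids, was at 1.01 and 0.63 in vivo and 2.40 and 3.52 in culture (difference 1.52), while the other 11 of 12 amino acid transporters were not called. For the unfolded protein response of the endoplasmic reticulum, 2 of 20 members were called lower (all genes 6.07%) and 0 higher, with a median of -0.34 (-0.19 with a common sum). Both calls rest on single libraries: Dnajb9 was at -0.84 without unstimulated replicate 1 and Sdf2l1 at -0.91 without replicate 2.

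ATF4 binds elements of the form TGATGNAA (CARE, C/EBP-ATF response element; N is any base). This motif, searched on both strands from 250 bases before to 50 after the start of each gene in the RefSeq promoter table (build GRCm38.p6), occurred in 5 of the 6 called members, in 5 of 17 members with a promoter, in 2.2% of the 6942 compared genes with a promoter and in 4.18% of all 22862 promoters. The member called without it was Psph. The promoters of Asns (chr6:7693160-7693459, minus strand) and Nupr1 (chr7:126625421-126625720, minus strand) are shown because these 2 genes had the largest differences among the called members, with the match in capitals. It lies on the gene's own strand in Asns and on the opposite strand in Nupr1. A match describes the sequence only and is no evidence of binding.
Asns: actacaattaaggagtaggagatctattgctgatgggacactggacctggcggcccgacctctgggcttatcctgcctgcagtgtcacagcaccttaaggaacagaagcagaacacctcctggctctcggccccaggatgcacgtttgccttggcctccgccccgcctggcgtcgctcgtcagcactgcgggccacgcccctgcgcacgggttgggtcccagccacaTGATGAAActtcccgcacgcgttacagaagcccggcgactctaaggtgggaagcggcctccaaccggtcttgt
Nupr1: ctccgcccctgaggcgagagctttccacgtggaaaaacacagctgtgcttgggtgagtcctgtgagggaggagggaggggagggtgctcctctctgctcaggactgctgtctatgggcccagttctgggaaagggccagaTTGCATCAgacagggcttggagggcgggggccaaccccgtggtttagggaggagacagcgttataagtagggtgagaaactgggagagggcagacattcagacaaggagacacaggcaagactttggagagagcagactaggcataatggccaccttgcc

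Receptors of the TNF receptor family, several of which mark effector Treg, were called in both directions. Of 14 compared, 3 were higher (all genes 5.65%) and 2 lower (all genes 6.07%), with a median of 0.65. Tnfrsf9 (4-1BB), a costimulatory receptor of activated T cells, was at 98.4 and 107 FPKM in vivo and 255 and 293 in culture (difference 1.68), and at 637 and 580 in stimulated culture. Tnfrsf14 (HVEM), the ligand of BTLA, was at 8.30 and 8.71 in vivo and 23.5 and 36.7 in culture (difference 1.71). Both were clear of the in vivo libraries in each cultured library. Cd27 was called with a difference of 1.00, at the threshold. The 2 lower members were Tnfrsf10b, a death receptor for TRAIL, at 28.7 and 30.3 against 8.44 and 10.1 (difference -1.54), and Tnfrsf8 (CD30), at 7.05 and 6.31 against 2.60 and 1.69 (difference -1.22).

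The effector Treg list as a whole did not shift, with a median of -0.04 whose sign changed with the scaling (0.10 with a common sum), but 6 of its 30 members were called higher (all genes 5.65%) and 2 lower (all genes 6.07%). Fgl2, a secreted suppressive protein, was at 5.92 and 7.10 FPKM in vivo and 20.3 and 33.2 in culture (difference 1.89). Il1rl1, the IL-33 receptor ST2 of tissue Treg, was at 13 and 17.5 in vivo and 33 and 51.8 in culture (difference 1.45). Pdcd1 (PD-1) was at 48.2 and 53.8 in vivo and 113 and 106 in culture (difference 1.26). Gzmb, a cytotoxic granule protease, was lower, at 23.6 and 37.4 against 7.41 and 12.2 (difference -1.51). Transcription factors of the effector state were not called: Batf was at 32.6 and 36.8 in vivo and 31.2 and 32.8 in culture, and Irf4 at 35.7 and 33.1 against 23.7 and 40.7. Il10, the suppressive cytokine, was at 69.5 and 80.6 in vivo and 43.5 and 55.4 in culture, again without a call (difference -0.45).

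Among chemokine receptors, Cxcr6, which binds CXCL16, was at 8.24 and 12.2 FPKM in vivo and 59.6 and 36.4 in unstimulated culture (difference 2.16). Cxcr3, the receptor of the interferon-induced CXCL9 and CXCL10, was at 13.1 and 15.7 in vivo and 34.6 and 30.8 in culture (difference 1.17). Of the chemokines themselves, the 2 with the largest differences were lower. Cxcl10 was at 64.2 and 73.1 in vivo and 13 and 13.4 in culture (difference -2.22), and Xcl1, a chemokine for dendritic cells, at 14.4 and 15.1 against 2.86 and 2.65 (difference -2.01). In all, 4 of 23 chemokines and receptors were called higher (all genes 5.65%) and 4 lower (all genes 6.07%), with a median of -0.01 whose sign changed without unstimulated replicate 1 (0.02).

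Further genes well above their in vivo level had no list in common. Among the 20 largest autosomal calls of higher level in genes without near-identical copies or overlaps, a selection added after their values were seen, Lars2, the mitochondrial leucyl-tRNA synthetase, was at 4.27 and 3.73 FPKM in vivo and 24.2 and 56.5 in culture (difference 3.01). Matk, a kinase that inhibits Src family kinases, was at 17.6 and 22 in vivo and 112 and 64 in culture (difference 2.15). Tjp3, a tight junction scaffold, was at 3.40 and 3.08 in vivo and 22.9 and 19.5 in culture (difference 2.44). Each of these 3 was also called higher in the libraries labelled cKO. Srxn1, which repairs oxidized peroxiredoxins, was at 0.95 and 1.23 in vivo and 6.75 and 7.59 in culture (difference 2.27). Ccng1, a p53 target, was at 16.6 and 17.5 in vivo and 47.6 and 57.6 in culture (difference 1.64). Of 18 p53 targets compared, 3 were called higher (all genes 5.65%) and 2 lower (all genes 6.07%). Their median of 0.065 changed sign without unstimulated replicate 2 (-0.125).

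**Figure D2:**
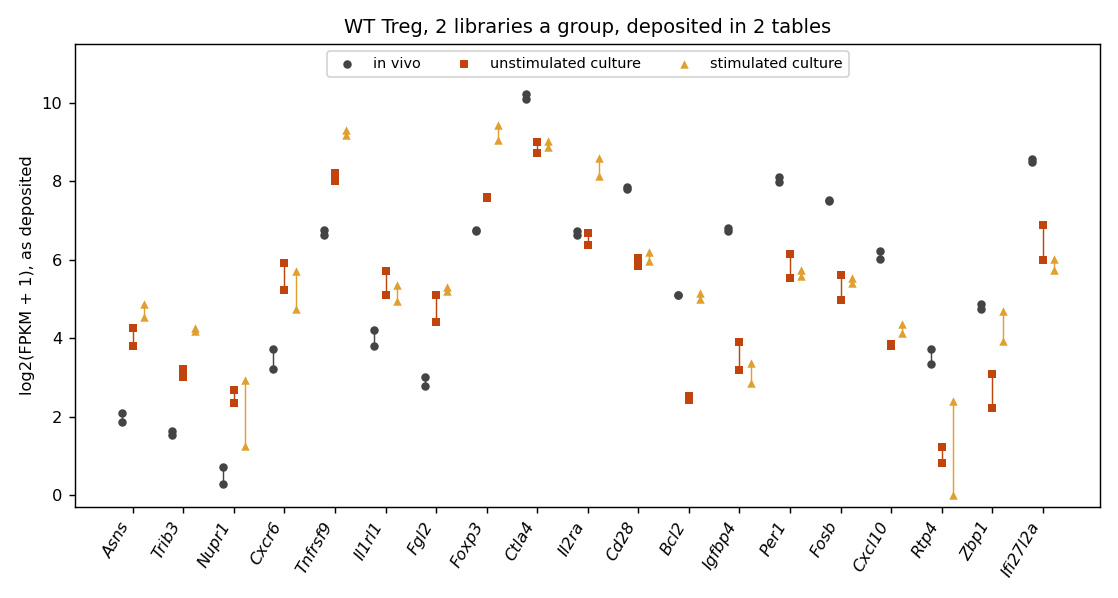
Deposited values as log2(FPKM + 1) (y axis) for 19 genes (x axis) in the 2 WT libraries of each group: in vivo (circles), unstimulated culture (squares) and stimulated culture (triangles), with a line joining the 2 libraries of a group. Asns, Trib3 and Nupr1 sit higher in both unstimulated libraries than in vivo, Bcl2 and Igfbp4 sit lower, Il2ra overlaps, and 1 stimulated library lists Rtp4 at 0.

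Interferon-stimulated genes formed the list with the most members called lower. Type I and II interferons induce these antiviral genes through JAK-STAT signalling. Of 29 members compared, 14 were lower (background 6.07%) and 1 higher (background 5.65%), 25 lay below 0, and the median was -0.99. Ifi27l2a was at 359 and 378 FPKM in vivo and 118 and 63.1 in unstimulated culture (difference -1.81). Zbp1, a sensor of Z-form nucleic acid, was at 28.4 and 25.6 in vivo and 7.54 and 3.66 in culture (difference -2.10). Rtp4 was at 12.1 and 9.13 in vivo and 1.33 and 0.76 in culture (difference -2.37). All 3 had every cultured library below every in vivo library. Irf7, the transcription factor that amplifies the interferon response, was at 43.2 and 44.6 against 16.7 and 13.4 (difference -1.44), and Bst2 (tetherin) at 57.2 in both in vivo libraries against 25.8 and 10.1 (difference -1.68). Isg15 was lower at 40.8 and 32.7 against 12.0 and 20.7 (difference -1.12). The calls of Isg15, Ifit1, Isg20 and Rsad2 did not hold in every run with a library left out or another scaling. Those of Ifi27l2a, Zbp1, Rtp4, Irf7 and Bst2 did.

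The member called higher was Gbp2, an interferon-gamma-induced GTPase, at 28.9 and 25.1 FPKM in vivo and 60.6 and 52.0 in culture (difference 1.12). Stimulated WT cultures had Ifi27l2a at 63.8 and 52.4 and Irf7 at 16.3 and 11.2. Oas1a (13.5 and 14.4 against 2.34 and 2.55, difference -2.06) and Ifit3 share 59.8% and 49.5% of their 50-base stretches with other loci, so their levels are uncertain. In the libraries labelled cKO, 10 of 29 members were lower (5.36% of all genes there) and 0 higher (4.1% of all genes there), with a median of -0.52. Rsad2 (-1.19 in WT, 0.85 there) and Isg20 (-1.02 in WT, 0.98 there) had the opposite sign, without a call.

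The interferon-stimulated response element (TTTC, any 2 bases, TTTC) was searched on both strands in the same promoter windows. It occurred in 6 of the 8 lower members with a promoter in the table and in 12 of all 16 members with one, against 3.24% of the compared genes and 3.58% of all promoters. The share was thus the same in the called members as in the whole list. The promoters of Oas1a (chr5:120907476-120907775, minus strand) and Bst2 (chr8:71537423-71537722, minus strand) are shown as the lower members with the motif and the largest differences. Capitals mark 2 overlapping matches in each, which read 5′ to 3′ on the opposite strand.
Oas1a: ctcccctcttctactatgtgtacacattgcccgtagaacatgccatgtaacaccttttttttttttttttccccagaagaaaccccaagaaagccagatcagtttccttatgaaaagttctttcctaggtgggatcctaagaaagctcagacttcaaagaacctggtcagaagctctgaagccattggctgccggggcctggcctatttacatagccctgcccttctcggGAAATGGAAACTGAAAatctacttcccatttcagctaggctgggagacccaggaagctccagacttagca
Bst2: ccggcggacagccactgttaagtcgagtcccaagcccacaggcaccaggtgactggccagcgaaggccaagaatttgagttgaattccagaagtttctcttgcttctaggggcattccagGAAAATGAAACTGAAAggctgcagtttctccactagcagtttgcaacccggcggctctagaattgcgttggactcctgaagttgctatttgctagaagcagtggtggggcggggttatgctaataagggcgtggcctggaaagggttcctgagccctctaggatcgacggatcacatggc

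Survival and quiescence genes were lower in part. Bcl2, which blocks mitochondrial apoptosis and depends on IL-2 family cytokines in Treg, was at 33.4 and 33.5 FPKM in vivo and at 4.38 and 4.71 in unstimulated culture (difference -2.59). Stimulated WT cultures were at 34.4 and 30.9, at the in vivo level as deposited. Of 14 BCL2 family members, Bid, a pro-apoptotic member cleaved by caspase-8, was higher at 10.7 and 13.4 against 4.21 and 4.46 (difference 1.30). Bbc3 (PUMA) was also called, at 1.15, but stood at 0.83 and lost the call without unstimulated replicate 2. Igfbp4, a secreted binding protein of insulin-like growth factors found in resting T cells, was at 106 and 111 in vivo and 14 and 8.06 in culture (difference -3.11). Across 25 quiescence and central Treg genes, 4 were lower (all genes 6.07%) and 2 higher (all genes 5.65%), with a median of -0.51 (-0.25 without unstimulated replicate 2). Of the lower members, Dapl1 lost its call with either unstimulated library left out. Its difference was -0.51 without replicate 2. It was -1.49 without replicate 1, where the remaining library lists Dapl1 at 0 and no call is possible. Within 22 genes of the IL-2 and STAT5 response, 2 were lower (all genes 6.07%) and 2 higher (all genes 5.65%), and the median was -0.51. The lower genes were Bcl2 and the receptor kinase Jak3 (72.8 and 74.7 against 25.9 and 22.7, difference -1.47). The higher genes were Il1rl1 (difference 1.45) and the kinase Pim1 (difference 1.19, not called with median-of-ratios or common-sum scaling).

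A few genes shared by all T cells were called lower. Cd28, the main costimulatory receptor, was at 224 and 231 FPKM in vivo and 56.4 and 64.8 in culture (difference -1.63). Thy1, a surface glycoprotein of mouse T cells, was at 263 and 268 in vivo and 88.7 and 53.6 in culture (difference -1.67). Of 15 pan T cell genes 3 were called lower (all genes 6.07%), these among them, 0 were called higher and 12 were not called; 13 lay below 0, with a median of -0.43 (-0.71 with median-of-ratios scaling). Cd3e (187 and 203 against 189 and 117) and Lck (227 and 245 against 178 and 164) were not called. From the Treg signature, Lag3, an inhibitory receptor for MHC class II, was at 44.7 and 53.1 in vivo and 15 and 14.4 in culture (difference -1.62).

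Some genes induced quickly by antigen receptor signals or handling were lower, though the list was not. Fosb, a subunit of AP-1, was at 180 and 184 FPKM in vivo and 30.6 and 47.8 in culture (difference -2.02). Sik1, a kinase induced by cyclic AMP, was at 215 and 210 in vivo and 46.9 and 66.7 in culture (difference -1.68). Klf4, which restrains T cell proliferation, was at 68.9 and 61.1 against 21.5 and 26.9 (difference -1.31). Of 32 immediate early genes, 3 were lower and 1 higher, near the shares of all genes (6.07% and 5.65%), and the median of -0.22 turned to 0.18 without unstimulated replicate 1. How the cells of each state were prepared was not stated, and its part in these values was not tested.

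Glucocorticoid targets were lower in 4 of 14 members (all genes 6.07%) and higher in 0, with 11 below 0 and a median of -0.45 (-0.71 among genes whose mean reaches 5 FPKM). Per1, a circadian repressor with glucocorticoid response elements, was at 273 and 250 FPKM in vivo and 45.0 and 69.2 in culture (difference -1.94). Tsc22d3 (GILZ) was at 320 and 318 in vivo and 121 and 99.2 in culture (difference -1.23). Errfi1, an inhibitor of EGF receptor signalling, was at 29.4 and 29.1 against 8.30 and 10.6 (difference -1.52). Sgk1, the fourth, had a difference of -1.14 (-0.97 and not called with a common sum). All 4 were also lower in the libraries labelled cKO.

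Cytokines were lower in 7 of 22 members (all genes 6.07%) and higher in 1 (all genes 5.65%). Il17f was at 6.17 and 5.16 FPKM in vivo and 0.45 and 1.35 in culture (difference -1.70), and Il17a, its relative, at 6.71 and 5.14 against 0.07 and 0, a call that needs unstimulated replicate 1 since replicate 2 lists it at 0. Il22 was at 7.67 and 4.90 in vivo and 0.54 and 0.82 in culture (difference -1.92). It stood at 196 and 129 in stimulated culture. Il13 (3.60 and 3.87 against 0.65 and 1.35) and Ifng (8.49 and 6.57 against 2.82 and 2.57) were lower by 1.09 and 1.13 on the log2 scale. Il5 was higher (0.34 and 0.25 against 1.20 and 1.76, difference 1.21). The calls of Il13, Ifng and Il5 did not hold in every run with a library left out or another scaling. The median was -0.50. Most of these levels are low, and Il22 and Il17f share sequence with other loci.

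Lists of biosynthesis genes had medians below 0, with a minority of their members called. In ribosome biogenesis 29 of 30 members lay below 0, with a median of -0.59, but 3 were called lower (all genes 6.07%) and 0 higher. All 3 lost the call without unstimulated replicate 1, with Gar1 at -0.96, Nolc1 at -0.77 and Rrp1b at -0.92. Of 27 cholesterol and fatty acid synthesis genes, 6 were lower (all genes 6.07%) and 0 higher, with a median of -0.39 (-0.18 without unstimulated replicate 1). Elovl6, a fatty acid elongase, was at 6.81 and 6.93 FPKM in vivo and 1.96 and 1.97 in culture (difference -1.33). Insig1, the sterol sensor that holds back SREBP, was at 80.7 and 73.8 against 28.9 and 37.7 (difference -1.08). The call of Insig1 did not hold in every run with a library left out or another scaling. Glycolysis had 2 of 22 members lower, near the 6.07% of all genes: Hk2, a hexokinase, at 11.8 and 9.18 against 1.89 and 4.32 (difference -1.50), and Slc2a1, a glucose transporter, whose difference of -1.06 was -0.85 without unstimulated replicate 1. Tyms, which makes thymidylate for DNA synthesis, was at 23.4 and 23.9 in vivo and 3.79 and 2.13 in culture (difference -2.62), yet 30 DNA replication genes had a median of -0.17 (-0.53 without unstimulated replicate 1). The mitosis list gave a median of -0.40 with 4 of 30 members lower (all genes 6.07%), and the median became 0.17 without unstimulated replicate 2. Metallothioneins and zinc transport had 2 of 10 members lower (all genes 6.07%), 0 higher and a median of -0.08 that changed sign with a common sum (0.07). The zinc exporter Slc30a1 was at 15.8 and 14.4 in vivo and 2.69 and 3.46 in culture (difference -1.93), and the metallothionein Mt1, which binds zinc and is induced by it, at 14.4 and 17.7 against 7.51 and 1.57 (difference -1.80).

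**Figure D3:**
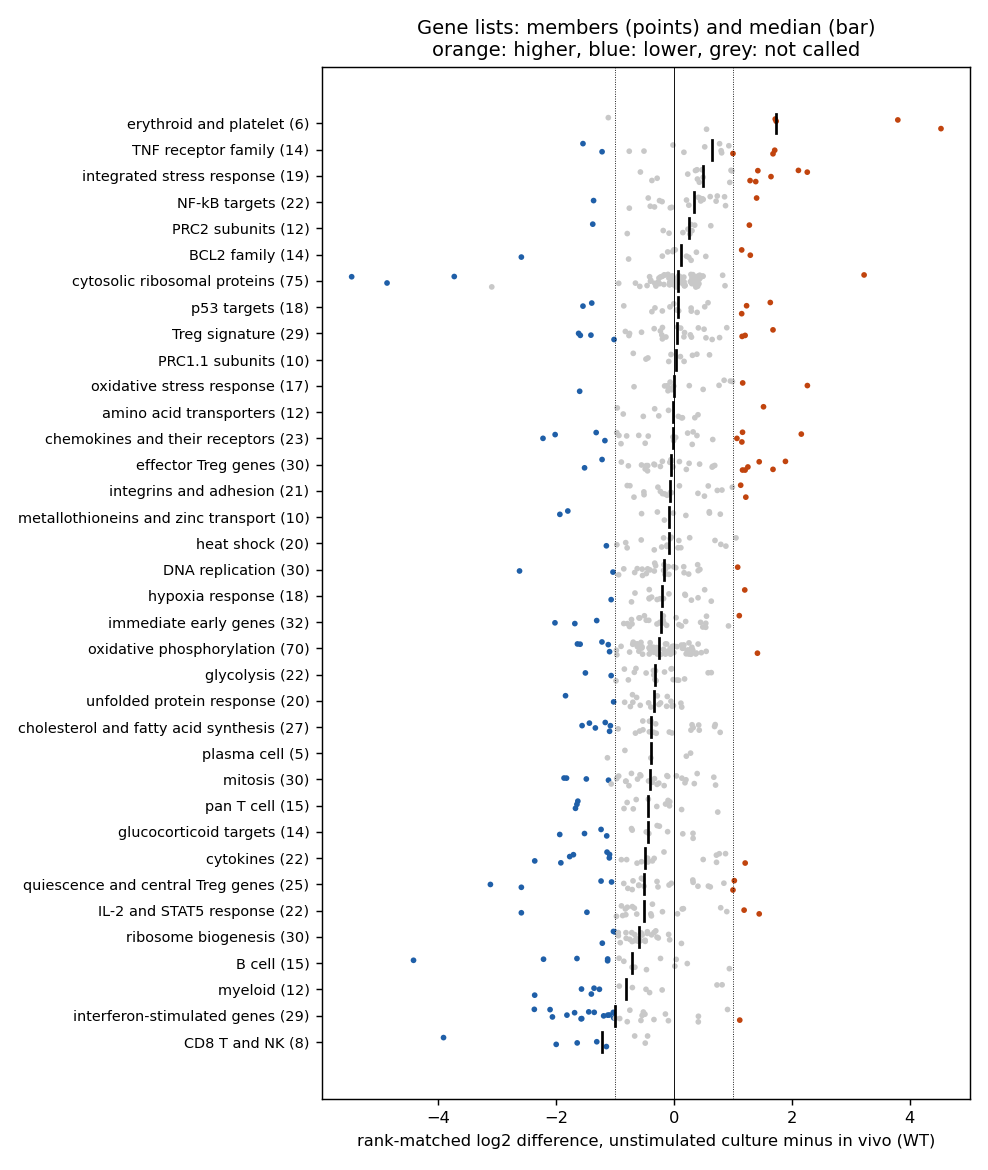
Rank-matched log2 difference, unstimulated culture minus in vivo in WT (x axis), for the compared members of each gene list (rows, number of members in brackets), with points for genes coloured by call, black bars for list medians and dotted lines at differences of 1. The interferon-stimulated genes (median -0.99) lie mostly left of 0, and the integrated stress response (median 0.50) mostly right of it.

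No subunit of PRC1.1, the complex of the study's target, was called. Kdm2b was at 113 and 110 FPKM in vivo and at 84.9 and 94.9 in culture (difference -0.09), and the 10 subunits, 0 of them called in either direction, ranged from Rybp at 36.2 and 34.5 against 18.2 and 23.8 (difference -0.69) to Bcorl1 (difference 0.60). Of 12 PRC2 genes, 1 was called lower and 1 higher, near the shares of all genes (6.07% and 5.65%). Jarid2, an accessory subunit that helps recruit the complex, was at 54.5 and 49.3 in vivo and 18.1 and 19.1 in culture (difference -1.38). Ezh1, the methyltransferase of non-dividing cells, was at 10.2 and 9.19 against 28.0 and 21.6 (difference 1.28). In the libraries labelled cKO, Jarid2 was called lower (-1.05) and Ezh1 was not called (0.86). Ezh2, the paralog of Ezh1, was at 14.4 and 12.2 in vivo and 17.4 and 15.1 in unstimulated culture, which was not called, and at 102 and 90.1 in stimulated culture.

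Transcripts of other cell types differed as well. In bulk RNA, fewer cells of a type and less RNA per cell cannot be told apart. All 8 compared CD8 T and NK cell markers lay below 0, 5 of them called lower (all genes 6.07%), and the summed level of the full list of 9 was 73.7 and 84.0 FPKM in vivo and 18.5 and 13.2 in culture, with 1 and 5 genes at 0 there. Gzma, granzyme A, was at 21.3 and 26.9 in vivo and 0.89 and 0 in culture (difference -3.91). Without unstimulated replicate 1, Cd8a (difference -1.31) fell to -0.98 and lost the call. Gzma and Eomes (difference -1.64) lost it there at larger differences of -4.09 and -1.84. Replicate 2 lists both at 0, and a gene at 0 throughout a group is never called. Myeloid markers were lower in 5 of 12 genes (all genes 6.07%), including Csf1r, the M-CSF receptor, at 9.09 and 6.86 against 0.15 and 0.83 (difference -2.36), although their sums overlapped (126 and 130 against 109 and 138), with Cst3, a cystatin, at 63.1 and 75.8 in vivo and 94 and 121 in culture. Of the 13 myeloid genes, 1 and 6 were at 0 in the cultured libraries. C1qa and C1qb, macrophage complement genes outside that list, were at 13.1 to 15.6 in vivo and 0 to 0.97 in culture. The part of these cells in the lower interferon, cytokine and Gzmb values was not tested.

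B cell markers were lower in 5 of 15 genes (all genes 6.07%), with sums of 613 and 713 FPKM in vivo and 307 and 564 in culture. H2-Eb1, an MHC class II chain, was at 51.5 and 56.3 in vivo and 1.04 and 1.55 in culture (difference -4.41). Stimulated WT replicates 1 and 2, from the same table as the unstimulated libraries, had H2-Eb1 at 40.4 and 1.104 FPKM. Its low level was thus not shared by all cultured WT libraries, and the cause of this split was not tested. Other class II genes varied. H2-Aa was at 83.2 and 98.0 in vivo and 34.0 and 95.8 in culture, and Cd74, the invariant chain, at 325 and 379 against 197 and 358, both without a call. Genes of the class II loading factors DM and DO, looked up after their values were seen, were called lower, among them H2-DMa at 18.4 and 18.4 against 3.11 and 2.47 (difference -2.31) and H2-Ob at 19.4 and 20.3 against 7.31 and 3.48 (difference -1.73). Erythroid and platelet markers were higher in 4 of 6 genes (all genes 5.65%), but their summed level was 14.8 and 12.5 in vivo, 18.2 in unstimulated replicate 1 and 660 in replicate 2. Hba-a1, an alpha globin, was at 4.92 and 503 in those 2 libraries, and the list's median of 1.73 was 0.43 without replicate 2.

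Many of the largest differences were in genes whose reads could be shared with a near-identical copy or an overlapping gene. Of all genes compared, 17% had at least 5% of their 50-base stretches in transcripts of another locus or at least 20% of their exon bases under another gene. The share was 16.1% of the genes called higher and 27.3% of those called lower, and 10 of the 15 largest higher calls and 3 of the 15 largest lower calls were such genes. Eif3j1 and its copy Eif3j2 went opposite ways, Eif3j1 from 39.9 and 38.1 FPKM in vivo to 2.50 and 7.90 in culture and Eif3j2 from 0.84 and 0 to 18.4 and 13.9. Amd1 and Amd2 did the same, from 115 and 109 to 17.6 and 11.6 and from 0.85 and 0.33 to 25.3 and 38.5. H2-Q6, a class I gene of a near-identical cluster, was at 0 and 137 in the 2 in vivo libraries. Such levels are uncertain, since the sources used here do not say how either table shared reads between copies.

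Among genes clear of such copies the largest differences toward lower levels were those of Cpne8 and Prnp. Cpne8, a calcium-dependent membrane-binding copine, was at 155 and 131 FPKM in vivo and 0.16 and 1.22 in culture (difference -6.14). Prnp, the prion protein, was at 420 and 327 in vivo and 13.8 and 13.7 in culture (difference -4.51). In the libraries labelled cKO the differences of these 2 genes were -6.32 and -4.26. Plaur, the urokinase receptor, was at 31.6 and 34.5 in vivo and 3.31 and 1.51 in culture (difference -3.27). Dtx1, a Notch target that dampens T cell activation, was at 36.1 and 33.5 in vivo and 3.81 and 5.45 in culture (difference -2.63). Stimulated WT cultures, which share the table of the unstimulated ones, were also below the in vivo level in these 4 genes. As deposited, Cpne8 was at 0.02 and 0, Prnp at 12.4 and 19.8, Plaur at 6.4 and 2.33 and Dtx1 at 5.95 and 5.10 FPKM. Culture and table cannot be told apart in these values.

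The same comparison in the libraries labelled cKO used 4 libraries that the WT calls had not used, from the same 2 tables. Kdm2b was not lower in them by whole-gene FPKM, at 147 and 125 in vivo and 89.8 and 97.4 in culture, so this value does not check the genotype label. Among 10839 genes compared there, 441 were higher (4.1%) and 577 lower (5.36%) in culture, 1018 in all (9.47% of 10755 that could be called). Of the genes higher in WT, 214 (35.9%) were called higher there, 1 lower and 347 not called. Those 214 make up 48.5% of the cKO calls. Of the genes lower in WT, 382 (59.6%) were called lower there, 10 higher and 247 not called, and the 382 are 66.2% of the cKO calls. Integrated stress response genes were higher in 10 of 19 members there and lower in 1, with a median of 1.13. Asns had a difference of 2.72, Igfbp4 of -2.35, Cd28 of -1.40 and Bcl2 of -1.47. Of the 197 named genes, 35 that were called in WT kept their sign there without a call, and 9 changed sign. Among the 35 were Tnfrsf9 (0.77), Il1rl1 (0.26), Thy1 (-0.86) and Klf4 (-0.33).

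The cultures labelled cKO held more transcripts of other cells than the WT cultures. Their B cell marker sums were 1617 and 1427 FPKM, against 275 and 381 in vivo, and 14 of 15 B cell markers were called higher (4.1% of all genes there). Their erythroid sums were 51230 and 5117. The part of these transcripts in the cKO differences was not tested.

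**Figure D4:**
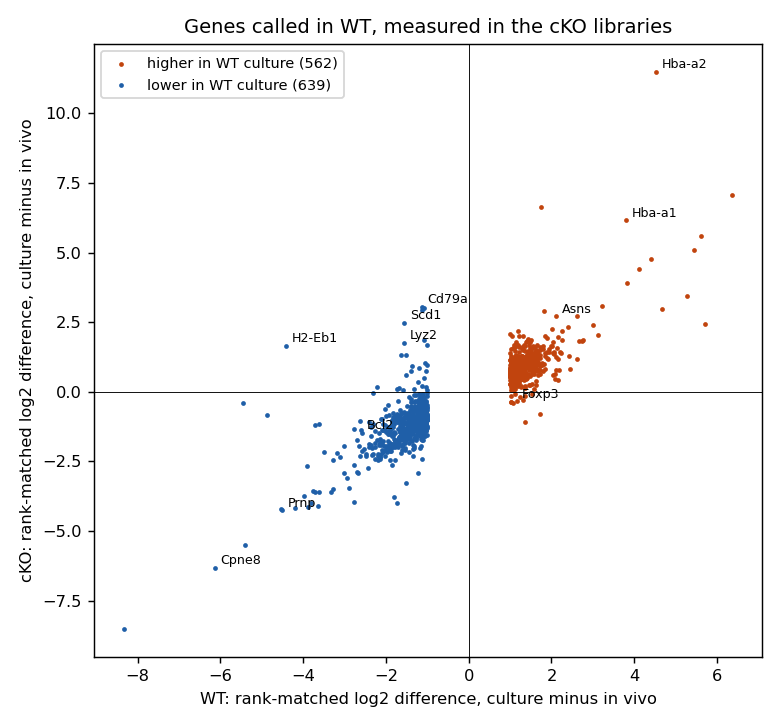
Genes called in WT, with the rank-matched log2 difference (culture minus in vivo) in WT on the x axis and in the libraries labelled cKO on the y axis; 562 of the higher genes (orange) and 639 of the lower genes (blue) were compared in both. Most points lie in the quadrants where both differences have the same sign, and H2-Eb1, Cd79a, Lyz2 and Scd1 lie in the upper left, lower in WT and higher in cKO.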

How the data were processed

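Polyadenylated RNA libraries of mouse Treg were deposited by the authors as FPKM in 2 tables, 1 of in vivo and 1 of in vitro libraries. Per the submitters' processing notes, the tools were HISAT2 2.2.1 and StringTie 2.1.1, and the builds listed are mm10 and hg19. The annotation and the tool behind each table are not stated there. FPKM are not counts and carry no depth, so no count model, interval or test was used. In vivo genes are listed by Entrez number (16196 of 16232 matched to a symbol through RefSeq) and in vitro genes by symbol (23204 current and 1095 through a synonym, of 24421). The in vitro table has 4 further columns of no sample here, which were not used. In vivo columns carry no replicate number, so their libraries follow table order.

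Ranks, log2(FPKM + 1) values, calls and list medians were computed with Python 3.11.15, pandas 2.3.3 and numpy 2.4.6, and the steps were tested on simulated data. Copies and overlaps were measured on GENCODE transcripts of GRCm38. The members and gene lists were chosen with earlier results of these data known. Named genes are the 15 highest of each group, the 15 largest calls each way with a mean of at least 10 FPKM, up to 4 called members of each list, and the 20 largest autosomal calls without copies or overlaps, which were added after seeing the data; the text gives part of these and names uncalled members and copy pairs for context. Some genes that met the rule are not reported here. Median differences in 4 equal bins of transcript length, shortest first, were -0.02, 0.07, 0.07 and 0.01. Calls were more frequent in the shortest bin (6.3% higher and 8.55% lower) than in the longest (3.66% and 4.65%). Alternatives were other thresholds, scalings, pseudocounts and filters, symbol matching, leaving out each library, and the cKO libraries.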

Additional observations from a re-analysis of the deposited data

Results flagged for a closer look

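Calls in WT and in the libraries labelled cKO went opposite ways for 11 genes, of which 10 were lower in culture in WT and higher in culture in the libraries labelled cKO. The difference between the genotypes was not tested. H2-Eb1 had a rank-matched log2 difference of -4.41 in WT and 1.65 in cKO, and was at 25.9 and 35.7 FPKM in cKO in vivo and at 96.4 and 78.0 in cKO culture. Stimulated WT replicates 1 and 2 had H2-Eb1 at 40.4 and 1.104 FPKM, so its level also split cultured libraries of the same genotype label. Cd79a, a B cell receptor subunit, had differences of -1.12 and 3.04, and Fcer2a, the low-affinity IgE receptor of B cells, of -1.64 and 1.33. Lyz2, lysozyme of myeloid cells, had -1.57 and 1.77. Scd1, a fatty acid desaturase, had -1.56 and 2.48, from 1.99 and 1.79 FPKM in cKO in vivo to 16.2 and 15.1 in cKO culture. The others included Fcrla, H2-DMb2, Napsa and Syk, and Cdk5rap1, which alone was higher in WT (1.35) and lower in cKO (-1.10).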

How the results depend on the processing

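With a difference of at least 1.5, 139 genes were higher and 246 lower. A shift of at least 20 percentiles gave 318 and 420, and a pseudocount of 0.1 gave 1028 and 951. Leaving out each library in turn gave 625 to 788 genes higher and 668 to 727 lower. Calls that were kept in all 4 of these runs and in median-of-ratios and common-sum scaling numbered 281 of 596 higher (47.1%) and 308 of 641 lower (48.0%). The all-gene median moved from 0.03 to 0.15 with a common sum. Leaving out copies and overlaps, chosen after seeing the data, left 451 higher and 496 lower, and leaving out chromosomes X and Y, also chosen then, left 580 and 627. With the cKO libraries in place of WT, these named genes changed sign: Cd22 (0.18), Cd79a (3.04), Ctse (-0.79), Cybb (0.74), Fcer2a (1.33), Foxp3 (-0.34), H2-Eb1 (1.65), Lyz2 (1.77) and Scd1 (2.48); the cause was not tested. Of the 197 named genes, 22 lost their call without unstimulated replicate 1 and 15 without replicate 2. Some of these losses, such as that of Gzma (-4.09 without replicate 1), came with a large difference. They arose because a gene at 0 in the only library left in a group is never called. The same rule applied to the calls counted above as kept. With the cKO libraries, 35 lost the call without a change of sign. No paired analysis was possible because the labels name no pairing of in vivo with cultured libraries. The in vivo columns also carry no replicate numbers. Unknown depth limits genes of a few FPKM most.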
